A study of Mus musculus with 49 samples.

Results

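The livers of 7 TRE-MET mice, aged 6 weeks, were compared with those of 7 FVB-WT mice, aged 14 weeks, which are 14 of the 49 liver and tumor samples of a study of liver cancer. The samples were chosen by their titles. TRE-MET mice are FVB mice with a human MET oncogene under a tetracycline operator, labelled Tre-c-Met, and the methods of the study state that they also carried LAP-tTA, a transactivator driven by a liver-specific promoter. Their labels and titles do not name LAP-tTA, whereas the titles of the MET samples aged 14 weeks name both transgenes. Whether the human MET was expressed in these 7 livers was not tested. FVB-WT mice are labelled wild type of the same strain, with no transgene named. All 14 livers were labelled normal, that is, without disease. The groups differ in both genotype and age, which cannot be told apart. The title of TRE-MET mouse 1 gives 6 weeks and its age field gives 14 weeks. Another group, 7 LAP-tTA mice aged 7 weeks that carried the transactivator without MET, is set beside them where it was measured. The methods of the study state that LAP-tTA mice carried more copies of the transactivator transgene than TRE-MET mice. TRE-MET and LAP-tTA livers thus differ in its copy number as well as in MET and age, and the part of each was not tested.

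RNA was read on a custom Affymetrix array of 43681 probe sets, and every level below is the log2 of the deposited intensity. The arrays have no read depth, and their number limits the precision. A gene was read at its brightest probe set, and levels of different genes are not compared with each other.

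MET is the receptor of hepatocyte growth factor, a signal for growth and survival of hepatocytes. The liver at these ages also matures: it takes up its adult program of drug and steroid metabolism, and immune cells settle among the hepatocytes. Secreted proteins are folded in the endoplasmic reticulum by chaperones such as Hspa5. Interferon gamma induces large GTPases and the MHC class II genes that present peptides to T cells, while type I interferon induces genes such as Ifit1.

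Several mice stood apart from their own group, and the plot of mice that stand apart shows them by number. FVB-WT mice 1 and 2 had no signal of the Y-linked gene Eif2s3y, at -5.01 and -5.29, against 0.39 to 0.91 in the 7 TRE-MET mice and 0.68 to 0.96 in FVB-WT mice 3 to 7, and the labels give no sex. The same mice lay at -4.18 and -3.47 for Cyp4a12a, a liver gene of male mice, which lay at 5.12 to 5.20 in FVB-WT mice 3 to 7. Cyp4a12a was chosen after its values were seen. The mean over 24 female-biased liver genes was 1.87 and 2.08 in FVB-WT mice 1 and 2. It was -2.67 to -1.76 in FVB-WT mice 3 to 7 and -2.64 to -2.17 in TRE-MET livers. Over 20 male-biased genes it was 0.09 and 0.47, 3.04 to 3.44, and 2.87 to 3.54, in the same order. The median log2 change of the female-biased genes was -1.81 with all mice and -0.06 without FVB-WT mice 1 and 2. The part of sex in the group differences was not tested. FVB-WT mice 5 and 7 held RNA of acinar pancreas: 21 of 25 acinar genes were higher in both than in all other 12 mice. Pancreatic amylase, Amy2, lay at 2.40 and -1.57 in these 2 mice and at -5.76 to -5.45 in the other 12. TRE-MET mice 1, 2, 3 and 5 were high in acute phase genes and low in Dbp, a transcription factor that cycles through the day. Dbp lay at -3.17 to -1.75 in these 4, at 1.82 to 2.27 in TRE-MET mice 4, 6 and 7, and at 2.67 and 2.91 in FVB-WT mice 1 and 2, with FVB-WT mice 3 to 7 between at 0.22 to 0.73.

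**Figure D1:**
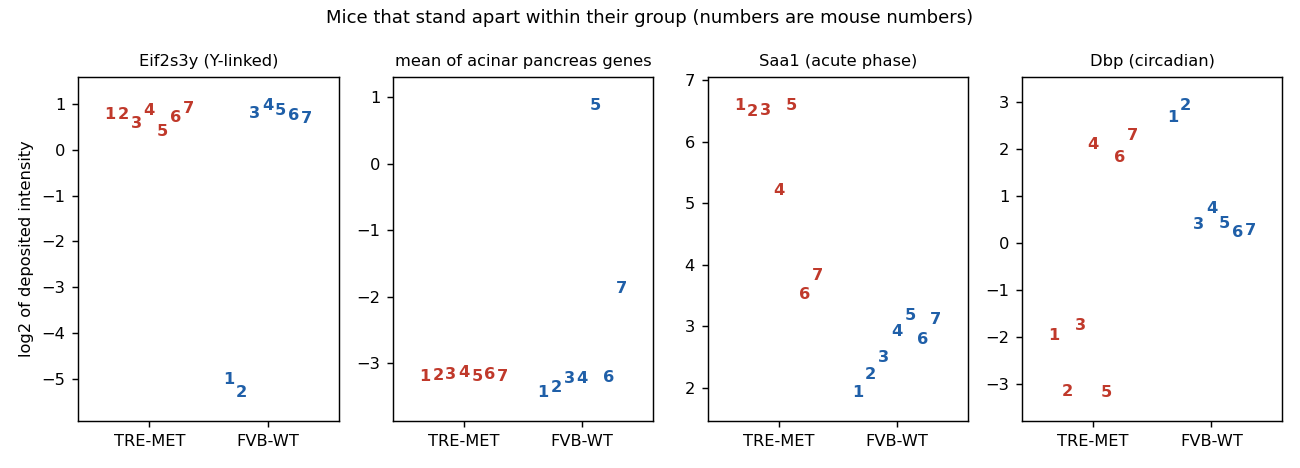
Log2 intensity (y axis) of Eif2s3y, of the mean over 25 acinar pancreas genes, of Saa1 and of Dbp in TRE-MET (left, red) and FVB-WT (right, blue) livers, with each mouse drawn as its number. FVB-WT mice 1 and 2 lack Eif2s3y signal, mice 5 and 7 are high in acinar genes, and TRE-MET mice 1, 2, 3 and 5 are high in Saa1 and low in Dbp.

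In limma, with p-values adjusted by Benjamini-Hochberg across the array, 2654 probe sets were called at an adjusted p under 0.05, with 1353 higher and 1301 lower in TRE-MET livers. Once the medians of the arrays were set equal, which moved the median change of all probe sets to -0.027 from 0.048, 540 were higher and 2284 lower, so the share of calls in each direction depends on the scaling. Among the 21517 genes, 778 were called higher (3.62%) and 910 lower (4.23%), with a median log2 change of 0.04 over all genes. The groups did not overlap in 540 genes (2.51%). Without FVB-WT mice 5 and 7, 2370 probe sets were called, and without FVB-WT mice 1 and 2, 1323, of which 1092 were among the 2654. The counts thus depend on which mice are read, and many groups of genes whose counts move with the mice that stood apart are also given without them. With FVB-WT mice 1 and 2 left out, 372 genes were called higher (1.73%) and 540 lower (2.51%), which is the background for the counts given without them. The same shares were 3.26% higher and 3.69% lower without FVB-WT mice 5 and 7, 0.539% higher and 1.65% lower without TRE-MET mice 1, 2, 3 and 5, and 6.37% higher and 6.09% lower without TRE-MET mice 4, 6 and 7.

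Many genes that fold and check secreted proteins were higher in TRE-MET livers. Of 30 measured genes of endoplasmic reticulum stress and chaperones, 19 were called higher and 0 lower, with a median log2 change of 0.48. Without FVB-WT mice 1 and 2, 14 were called higher, without FVB-WT mice 5 and 7, 17, and without TRE-MET mice 1, 2, 3 and 5, 11, and none was called lower in these fits. Several of these genes share a promoter element that is known to bind the stress sensor ATF6, the ER stress element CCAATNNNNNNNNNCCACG. Searched on both strands in the 250 bases before each RefSeq gene start (GRCm38.p6), it lay in 37 of 32851 promoters (0.113%). Counted by gene, it lay in 35 of 27025 (0.13%) and in 8 of the 27 list members that had a promoter in the table. These were Calr, Canx, Creld2, Dnajc3, Hsp90b1, Hspa5, Pdia6 and Syvn1. All 8 were called higher, as were 9 of the 19 members without it. Calr and Canx lost their call without FVB-WT mice 1 and 2 and also without FVB-WT mice 5 and 7. Without TRE-MET mice 1, 2, 3 and 5, Calr, Canx, Hsp90b1 and Pdia6 were not called (limma adjusted p = 0.0527 to 0.533). The same genes were not called without FVB-WT mice 1, 2, 5 and 7 (limma adjusted p = 0.0562 to 0.356). A match is a description of the letters and no proof of a site. Stretches of 60 bases that hold it are printed for 3 members and for Derl3, with the element in capitals, on either strand, and the bases around it in lower case.
Hspa5, chr2:34772004-34772063, plus strand: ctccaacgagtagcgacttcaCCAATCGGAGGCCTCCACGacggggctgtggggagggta
Creld2, chr15:88819499-88819558, plus strand: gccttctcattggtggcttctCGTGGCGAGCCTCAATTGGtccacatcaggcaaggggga
Dnajc3, chr14:118937806-118937865, plus strand: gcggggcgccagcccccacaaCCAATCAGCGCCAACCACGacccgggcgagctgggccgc
Derl3, chr10:75893221-75893280, plus strand: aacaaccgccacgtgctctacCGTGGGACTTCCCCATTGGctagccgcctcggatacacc

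Sdf2l1, a partner of the chaperone machinery inside the endoplasmic reticulum, lay between 2.71 and 3.73 in TRE-MET livers, with a median of 3.03, and between 0.41 and 2.02 in FVB-WT livers, with a median of 1.36. The groups did not overlap, and Sdf2l1 rose 3.34-fold (log2 change 1.74, SE 0.195, limma adjusted p = 1.61e-04). Creld2, a resident protein of the same compartment, ranged from 2.94 to 3.99 around a median of 3.63 in TRE-MET livers, against 1.24 to 2.58 around 1.68 in FVB-WT livers. It rose 3.23-fold (adjusted p = 2.25e-04), again with no overlap. Manf, which is secreted under endoplasmic reticulum stress, lay at 4.48 to 4.78 in TRE-MET livers and 3.35 to 4.06 in FVB-WT livers and was 1.83-fold higher (adjusted p = 1.30e-04). The chaperone Hspa5, also known as BiP, lay at 5.25 to 5.58 with a median of 5.36 in TRE-MET livers and at 4.42 to 4.95 with a median of 4.66 in FVB-WT livers. That is a difference of 0.67 on the log2 scale (1.59-fold, adjusted p = 4.05e-04), and every TRE-MET liver was above every FVB-WT liver. Its co-chaperone Dnajc3 was 1.72-fold higher (adjusted p = 3.56e-04), at 2.94 to 3.47 in TRE-MET livers and 2.25 to 2.63 in FVB-WT livers.

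Outside that list, 2 further genes of this compartment were among the 12 largest increases whose groups did not overlap. Derl3, a factor of the export and degradation of misfolded proteins, lay between -1.30 and 0.64 in TRE-MET livers and between -2.28 and -1.58 in FVB-WT livers, a 2.33-fold rise (adjusted p = 0.00492). The prolyl isomerase Fkbp11 was 2.5-fold higher (adjusted p = 0.0052), at 0.24 to 1.88 in TRE-MET livers and -1.27 to 0.24 in FVB-WT livers. These values met at 0.24 to 2 decimals, and the call was lost without TRE-MET mice 1, 2, 3 and 5 (adjusted p = 0.154). Plasma cells and acinar cells are rich in such chaperones. Of 9 measured immunoglobulin and plasma cell genes, 3 were called higher and 2 lower, and their mean level lay at -1.79 to -1.55 in TRE-MET livers and -1.69 to -1.64 in FVB-WT livers. Without FVB-WT mice 1 and 2, 0 were called higher and 1 lower. Acinar markers are given above, and the part of such cells in these differences was not tested.

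Part of this rise was also seen in the other young group. In LAP-tTA livers against the same FVB-WT livers, where 5.29% of all genes were called higher and 7.18% lower, 6 of the 30 genes were called higher and 1 lower. Creld2 was 2.92-fold higher in LAP-tTA livers (adjusted p = 6.35e-06), and TRE-MET and LAP-tTA livers differed by 0.15 on the log2 scale (adjusted p = 0.735). Sdf2l1 was 2.38-fold higher in LAP-tTA livers, and TRE-MET livers exceeded LAP-tTA livers 1.41-fold (adjusted p = 0.0287). Dnajc3 lay at 2.49 to 2.68 in LAP-tTA livers, next to the FVB-WT range, and TRE-MET livers exceeded them 1.56-fold (adjusted p = 1.11e-04). These comparisons share samples, so they are given side by side and no agreement between them is counted. Among 15 heat shock genes of the cytosol, 4 were called higher, including Hsp90aa1 (1.51-fold, adjusted p = 0.00692), Hspa8 (1.44-fold, adjusted p = 0.0131) and Hspa1b (2.05-fold, adjusted p = 0.0188). LAP-tTA livers were also above FVB-WT livers at these 3 genes, 1.62-fold, 1.51-fold and 2.72-fold. Of the 15 genes, 9 were called higher and 0 lower in LAP-tTA than in FVB-WT livers. Against LAP-tTA livers, TRE-MET livers had 5 called lower and 0 higher, with a median log2 change of -0.36.

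**Figure D2:**
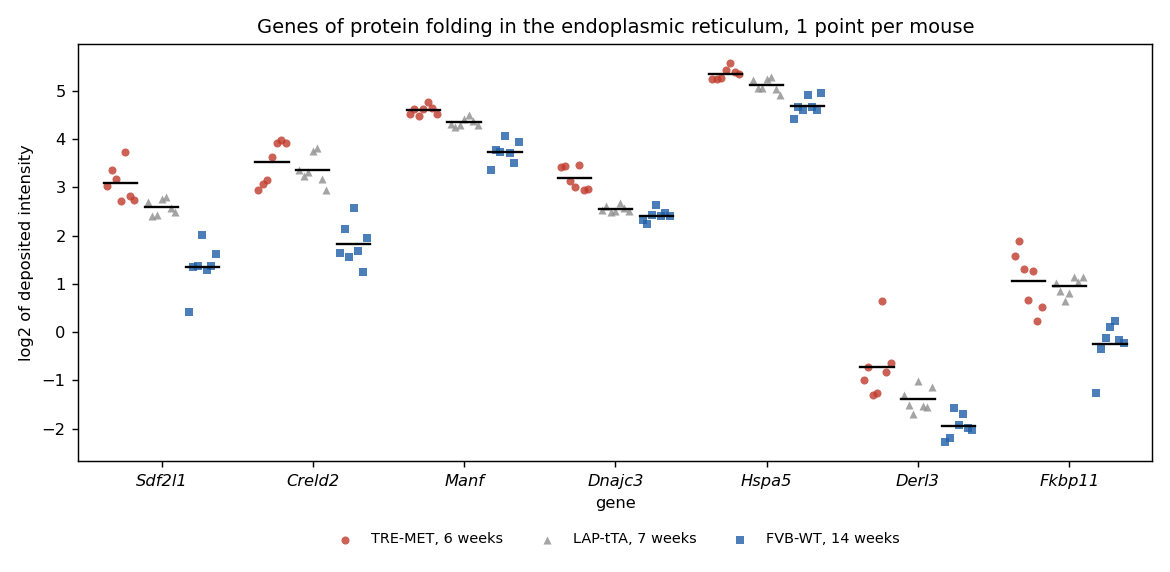
Log2 intensity (y axis) of 7 genes of protein folding in TRE-MET (red circles), LAP-tTA (grey triangles) and FVB-WT (blue squares) livers, 1 point per mouse with the mean as a bar. TRE-MET livers lie above FVB-WT livers at each gene, with Fkbp11 ranges that meet at 0.24, while LAP-tTA livers lie near TRE-MET livers for Creld2 and near FVB-WT livers for Dnajc3.

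A part of the genes of antigen presentation was lower in TRE-MET livers. Of 23 measured genes of MHC class II and antigen presentation, 11 were called lower, 0 higher and 12 did not pass, with a median log2 change of -0.40. Leaving out FVB-WT mice 1 and 2 gave 11 lower, and leaving out TRE-MET mice 1, 2, 3 and 5 gave 10. The class II chains H2-Ab1 and H2-Aa carry the peptide to the cell surface. H2-Ab1 lay between -0.45 and 0.72 in TRE-MET livers, with a median of -0.30, and between 1.08 and 2.47 in FVB-WT livers, with a median of 2.29. With no overlap, it was 3.97-fold lower in TRE-MET livers (adjusted p = 2.61e-04). H2-Aa, at -0.17 to 0.99 in TRE-MET livers and 1.12 to 2.40 in FVB-WT livers, was 3.15-fold lower (adjusted p = 3.14e-04). Their chaperone, the invariant chain Cd74, ranged from 1.41 to 2.38 in TRE-MET livers and from 3.01 to 4.17 in FVB-WT livers, a 3.43-fold difference (adjusted p = 6.69e-05). H2-DMa, which helps to load the peptide, was 2.39-fold lower (adjusted p = 5.23e-04), and the class I gene H2-Q7 2.25-fold lower (adjusted p = 0.00232).

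Of 31 measured interferon-stimulated genes, 17 were called lower and 0 higher in TRE-MET livers, with a median log2 change of -0.40. Without FVB-WT mice 1 and 2 the count was 16, and without TRE-MET mice 1, 2, 3 and 5 it was 14, with 0 higher in either. Without TRE-MET mice 4, 6 and 7 it was 12 lower and 1 higher, against 6.09% and 6.37% of all genes. Many such genes carry the core of the interferon-stimulated response element, written as GAAA, 2 free bases and GAAA, which lay in 978 of 32851 promoters (2.98%), searched as above. Counted by gene, the core lay in 936 of 27025 (3.46%). It was found in 12 of the 23 list members with a promoter in the table, of which 7 were called, as were 5 of the 11 members without it. The element is shown in capitals for 2 list members, Gbp3 and Ifit1, and for 2 GTPases outside the list that were among the 12 largest decreases. The letters read GAAA and GAAA on one strand or TTTC and TTTC on the other, and the 2 matches in Gbp3 overlap.
Tgtp1, chr11:48992289-48992348, minus strand: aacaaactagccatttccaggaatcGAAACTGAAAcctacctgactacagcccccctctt
Gbp2b, chr3:142594685-142594744, plus strand: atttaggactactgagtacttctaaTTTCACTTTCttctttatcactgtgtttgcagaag
Gbp3, chr3:142559977-142560036, plus strand: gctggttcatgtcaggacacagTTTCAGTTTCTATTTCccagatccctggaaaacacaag
Ifit1, chr19:34640769-34640828, plus strand: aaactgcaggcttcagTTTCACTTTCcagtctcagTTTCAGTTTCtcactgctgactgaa

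Several GTPases induced by interferon gamma were lower. Tgtp1, of a family that attacks the vacuoles of parasites, lay between -1.22 and -0.24 in TRE-MET livers, with a median of -0.97, and between 0.05 and 2.26 in FVB-WT livers, with a median of 1.24. It was 3.82-fold lower in TRE-MET livers (adjusted p = 5.79e-04), and the groups did not overlap. The guanylate-binding protein genes Gbp2b and Gbp8 were 3.55-fold and 3.27-fold lower (adjusted p = 3.14e-04 and 9.75e-05). Gbp2b lay at -3.33 to -2.53 in TRE-MET livers and -2.28 to -0.47 in FVB-WT livers, and Gbp8 at -3.82 to -2.99 and -2.35 to -0.97, in the same order of groups. The related Gbp3 and Gbp2 were 2.28-fold and 1.86-fold lower (adjusted p = 1.99e-04 and 3.37e-04). Close copies exist in these families and among H2 genes, and how well the probe sets separate them was not tested.

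Among the genes of type I interferon, Ifit1, which binds foreign RNA, ranged from -1.94 to -1.14 around a median of -1.59 in TRE-MET livers, against -0.86 to -0.17 around -0.35 in FVB-WT livers. It was 2.14-fold lower with no overlap (adjusted p = 1.99e-04). Usp18, which removes the ubiquitin-like ISG15, was 2.06-fold lower (adjusted p = 2.65e-04), at -2.76 to -1.95 in TRE-MET livers and -1.85 to -1.03 in FVB-WT livers. Ifit2 was 1.83-fold lower (adjusted p = 4.43e-04), at -2.03 to -1.34 in TRE-MET livers and -1.26 to -0.45 in FVB-WT livers.

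LAP-tTA livers separated these genes. At the class II genes and the GTPases, LAP-tTA livers were as low as or lower than TRE-MET livers: Cd74 lay at 1.37 to 1.65 in them and was 4.70-fold lower than in FVB-WT livers (adjusted p = 2.08e-09), and Gbp2b was 3.41-fold lower (adjusted p = 1.50e-05). At Gbp2b, TRE-MET and LAP-tTA livers differed by -0.06 on the log2 scale (adjusted p = 0.891), and at Cd74 TRE-MET livers were 1.37-fold higher (adjusted p = 0.0268). At the type I interferon genes the order was another. Ifit1 lay at -0.97 to 0.42 in LAP-tTA livers, around the FVB-WT values (adjusted p = 0.527), so that TRE-MET livers were 2.5-fold below LAP-tTA livers (adjusted p = 1.21e-04). Against LAP-tTA livers, Usp18 and Ifit2 were 2.75-fold and 2.0-fold lower in TRE-MET livers (adjusted p = 8.24e-05 and 3.81e-05). Against FVB-WT livers, LAP-tTA livers had 13 of the 23 antigen presentation genes lower and 0 higher, and 6 of the 31 interferon-stimulated genes lower and 2 higher.

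**Figure D3:**
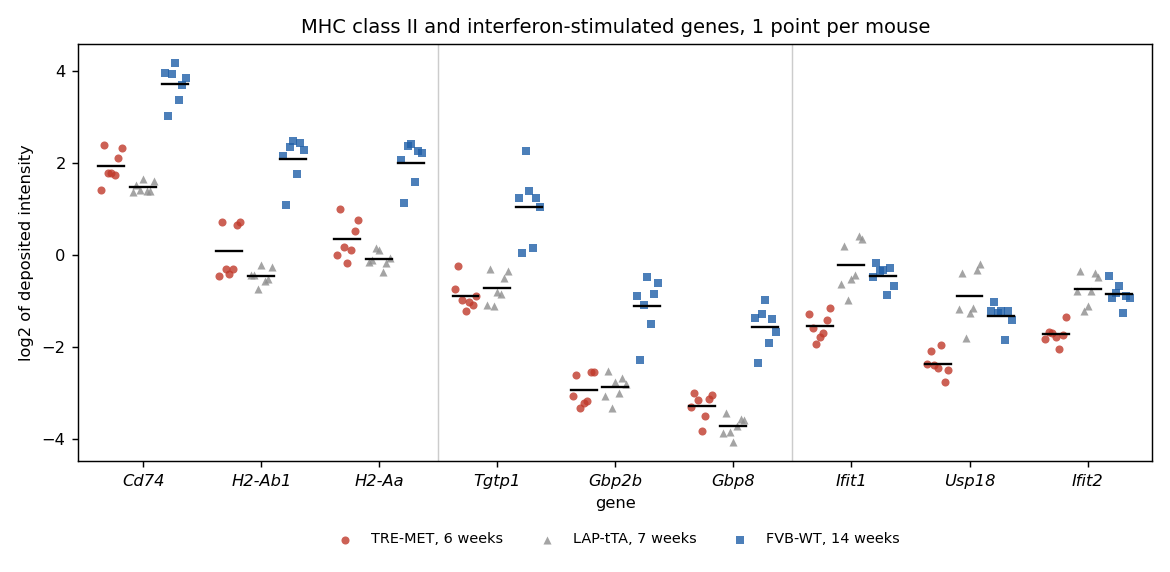
Log2 intensity (y axis) of 3 MHC class II genes, 3 interferon gamma-induced GTPases and 3 type I interferon genes in TRE-MET (red circles), LAP-tTA (grey triangles) and FVB-WT (blue squares) livers, 1 point per mouse with the mean as a bar. TRE-MET livers lie below FVB-WT livers at all 9 genes, LAP-tTA livers share the low level at the first 6 and lie around FVB-WT livers at the last 3.

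Some markers of lymphocytes and macrophages were lower as well, and their counts depended on the mice read. Of 19 measured lymphocyte markers, 6 were called lower and 0 higher, with a mean level of -3.24 to -3.05 in TRE-MET livers and -3.12 to -2.70 in FVB-WT livers. Without TRE-MET mice 1, 2, 3 and 5, 2 were called lower, and without TRE-MET mice 4, 6 and 7, 5. LAP-tTA livers had 7 of the 19 lower and 0 higher against FVB-WT livers. Between TRE-MET and LAP-tTA livers, 0 were lower and 1 was higher in TRE-MET livers. Ptprc, the common surface protein of leukocytes, was 1.65-fold lower (adjusted p = 0.00446), at -0.91 to -0.24 in TRE-MET livers and -0.20 to 0.60 in FVB-WT livers. The chemokine gene Ccl5, the chemokine receptor gene Cxcr6 and the granzyme gene Gzma were 1.98-fold, 2.0-fold and 1.51-fold lower (adjusted p = 0.00257, 0.00257 and 0.00537). Of 22 markers of Kupffer cells and macrophages, 4 were called lower, among them the receptor genes Timd4 (1.64-fold, adjusted p = 0.00799), Csf1r (1.36-fold, adjusted p = 0.0149) and Adgre1 (1.47-fold, adjusted p = 0.0207). Cd163, the scavenger receptor for hemoglobin, was called higher (1.5-fold, adjusted p = 0.0161), and the mean level of the list lay at -0.11 to 0.63 in TRE-MET livers and 0.16 to 0.69 in FVB-WT livers. Without TRE-MET mice 1, 2, 3 and 5, 10 of the 22 were called lower and 0 higher, with a median log2 change of -0.60. Without TRE-MET mice 4, 6 and 7, 1 was called lower and 2 higher, with a median log2 change of -0.03. In that fit 6.09% of all genes were called lower and 6.37% higher. In LAP-tTA against FVB-WT livers 15 were lower and 1 higher. Cx3cr1, a receptor of monocytes and macrophages, was among the 12 largest increases, at -1.16 to -0.06 in TRE-MET livers and -2.21 to -1.38 in FVB-WT livers (2.11-fold, adjusted p = 0.00387). Its call was lost without TRE-MET mice 1, 2, 3 and 5 (adjusted p = 0.106). In whole liver, fewer cells of a type and less RNA per cell cannot be told apart, and the part of immune cells in the lower class II and interferon genes was not tested.

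Some of the enzymes that clear drugs and steroids were lower in TRE-MET livers. The largest decrease among called genes whose groups did not overlap and which were also called without FVB-WT mice 5 and 7 was Cyp2b10, the cytochrome P450 that marks activity of the nuclear receptor CAR. It lay between -2.48 and -0.71 in TRE-MET livers, with a median of -1.13, and between 0.29 and 2.63 in FVB-WT livers, with a median of 2.04. Cyp2b10 was lower by a log2 change of -3.32 in TRE-MET livers (SE 0.333, adjusted p = 9.44e-05), with no overlap and FVB-WT mouse 5 the lowest of its group at 0.29. Without FVB-WT mice 1 and 2, its 2 highest values, the log2 change was -3.03 (adjusted p = 1.93e-04). LAP-tTA livers lay at 0.27 to 0.75, above all TRE-MET livers and below all FVB-WT livers but mouse 5, and were 2.55-fold below FVB-WT livers (adjusted p = 0.00207), and TRE-MET livers were 3.93-fold below them (adjusted p = 4.86e-06). Of 39 measured genes of cytochrome P450 families 1 to 3, 8 were called lower, 1 higher and 30 did not pass. Without FVB-WT mice 1 and 2 the count was 5 lower and 0 higher, without TRE-MET mice 1, 2, 3 and 5 it was 1 lower and 0 higher, and without TRE-MET mice 4, 6 and 7 it was 12 lower and 2 higher. The mean level of the list was 1.44 to 1.98 in TRE-MET livers, 2.97 and 3.03 in FVB-WT mice 1 and 2, and 1.96 to 2.31 in FVB-WT mice 3 to 7. The epoxide-forming Cyp2c54 and Cyp2c23 were 2.17-fold and 1.67-fold lower (adjusted p = 0.00495 and 0.00787). Cyp3a13 was the 1 that rose (2.08-fold, adjusted p = 0.0235), and the call was lost without FVB-WT mice 5 and 7, without FVB-WT mice 1 and 2, and without TRE-MET mouse 1 (adjusted p = 0.0525 to 0.0641).

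Of 43 measured conjugation enzymes and NRF2 targets, 18 were called lower and 0 higher, with a median log2 change of -0.57. Leaving out FVB-WT mice 1 and 2 gave 17 lower, while leaving out TRE-MET mice 1, 2, 3 and 5 gave 3 and leaving out TRE-MET mice 4, 6 and 7 gave 25, against 1.65% and 6.09% of all genes called lower in these fits. The glutathione transferase Gstt3 lay between 0.07 and 1.17 in TRE-MET livers, with a median of 0.89, and between 1.82 and 3.43 in FVB-WT livers, with a median of 2.25. It was 3.31-fold lower (adjusted p = 6.91e-04), with no overlap, and FVB-WT mice 1 and 2 were its highest. Gstt2, Gstt1 and Gsta4, of the same function, were 2.27-fold, 1.49-fold and 1.99-fold lower (adjusted p = 0.00136, 0.00383 and 0.00409), and these 3 calls were lost without TRE-MET mice 1, 2, 3 and 5. The carboxylesterase Ces1g was 3.42-fold lower (adjusted p = 0.00234), at 0.04 to 2.15 in TRE-MET livers and 2.52 to 3.44 in FVB-WT livers. In LAP-tTA livers Gstt3 lay at 0.87 to 1.22, below every FVB-WT liver and around the higher TRE-MET values. Gstt2 lay at 2.14 to 2.46 in LAP-tTA livers, within the FVB-WT range, and TRE-MET livers were 1.87-fold below them (adjusted p = 1.35e-05). Against FVB-WT livers, LAP-tTA livers had 10 of the 43 genes lower and 5 higher, where 7.18% and 5.29% of all genes were called. Against LAP-tTA livers, TRE-MET livers had 18 lower and 3 higher, with 1071 lower and 939 higher among all 21517 genes.

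Carriers of organic anions changed alongside. Of 29 measured genes of bile acid synthesis and transport, 4 were called lower and 0 higher, with 1 lower without TRE-MET mice 1, 2, 3 and 5 and 11 lower and 1 higher without TRE-MET mice 4, 6 and 7. Abcc3, which exports conjugates to the blood, lay at 0.44 to 2.06 in TRE-MET livers and 2.47 to 3.57 in FVB-WT livers, where mouse 1 was highest and the next lay at 2.63. It was 2.78-fold lower in TRE-MET livers (adjusted p = 0.0016) and 2.68-fold lower than in LAP-tTA livers (adjusted p = 5.92e-05), whose range of 2.49 to 2.93 fell within that of FVB-WT livers. The uptake carrier Slco1a4 was 2.80-fold lower (adjusted p = 0.00337), at -0.33 to 1.12 in TRE-MET livers and 1.40 to 2.71 in FVB-WT livers. It lost its call without TRE-MET mice 1, 2, 3 and 5 (adjusted p = 0.113). Here LAP-tTA livers were lower still, at -1.17 to -0.11, so that TRE-MET livers exceeded them 1.92-fold (adjusted p = 0.0116). The exporter Abcc4 was 2.01-fold lower (adjusted p = 0.017).

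**Figure D4:**
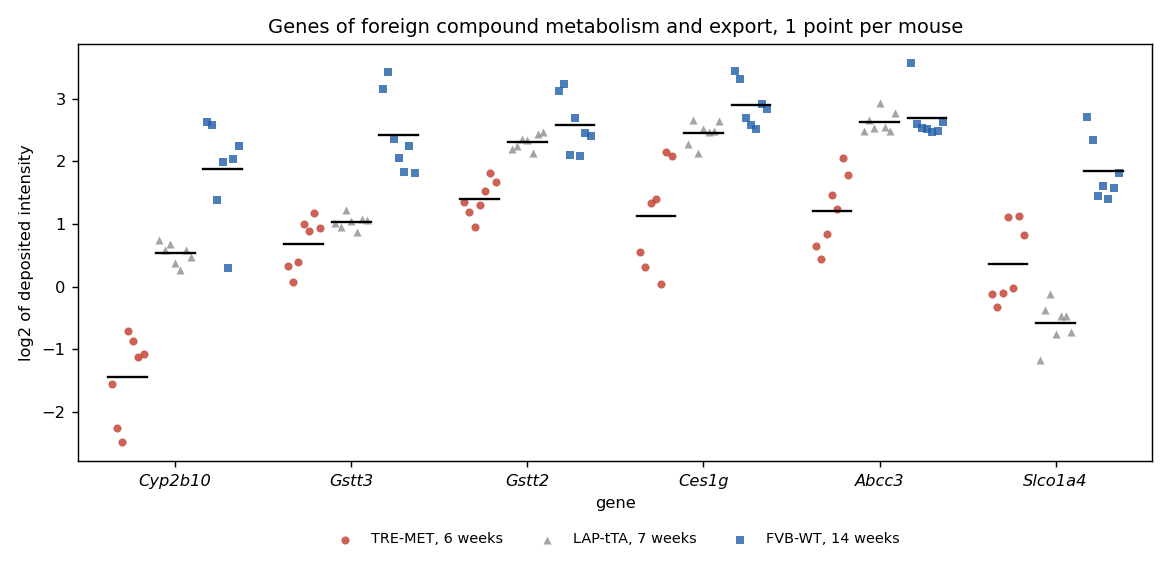
Log2 intensity (y axis) of 6 genes of foreign compound metabolism and transport in TRE-MET (red circles), LAP-tTA (grey triangles) and FVB-WT (blue squares) livers, 1 point per mouse with the mean as a bar. TRE-MET livers lie below FVB-WT livers at each gene. LAP-tTA livers lie within the FVB-WT range for Abcc3 and Gstt2 and around the higher TRE-MET values for Gstt3. They lie between the means of the other groups for Cyp2b10 and Ces1g and lowest for Slco1a4.

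The acute phase genes were higher in TRE-MET livers, in part of the mice. Of 33 measured members, 10 were called higher and 0 lower, with a median log2 change of 0.85. Without FVB-WT mice 1 and 2 the calls were 2 higher and 1 lower, and without TRE-MET mice 1, 2, 3 and 5 they were 2 higher and 0 lower, whereas 24 were called higher without TRE-MET mice 4, 6 and 7. Over all genes, 0.539% and 6.37% were called higher in these last fits. Saa1, the serum amyloid A that rises most in acute inflammation, lay at 6.49 to 6.58 in TRE-MET mice 1, 2, 3 and 5, at 5.20 in mouse 4, and at 3.52 and 3.83 in mice 6 and 7. In FVB-WT livers it lay at 1.93 to 3.17, below every TRE-MET liver. In LAP-tTA livers it lay at 1.82 to 5.64, with mice 1, 2 and 5 at 5.16, 4.79 and 5.64, above TRE-MET mice 6 and 7, and TRE-MET and LAP-tTA livers differed by 1.89 on the log2 scale (adjusted p = 0.0757). The difference between TRE-MET and FVB-WT livers was 7.31-fold (adjusted p = 0.00185), and 1.52 on the log2 scale over TRE-MET mice 4, 6 and 7 alone (adjusted p = 0.0318). Saa4 was 1.97-fold higher with no overlap (adjusted p = 0.00134). Orm1 and Hp, the genes of orosomucoid and haptoglobin, were raised 1.8-fold and 1.53-fold (adjusted p = 0.0207 and 0.0213), and both lost their call without FVB-WT mice 1 and 2 (adjusted p = 0.0537 and 0.0665). Il1r1, the receptor through which interleukin 1 acts, was the second largest increase, after Saa1, among the called genes whose groups did not overlap and which were also called without FVB-WT mice 5 and 7. It lay between 1.0 and 2.93 in TRE-MET livers, with a median of 2.42, and between -0.61 and 0.66 in FVB-WT livers, with a median of 0.31 (3.6-fold, adjusted p = 0.00174). It was also 3.19-fold above LAP-tTA livers (adjusted p = 3.00e-04).

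Neutrophil genes moved with the acute phase genes. Of 18 measured markers, 3 were called higher, with 0 called without FVB-WT mice 1 and 2, 0 without TRE-MET mice 1, 2, 3 and 5, and 9 higher without TRE-MET mice 4, 6 and 7. Their mean level lay at -3.52 to -1.63 in TRE-MET livers and at -3.45 to -3.25 in FVB-WT livers. Prtn3, a protease of neutrophil granules, lay at 3.49 to 3.86 in TRE-MET mice 1, 2, 3 and 5 and at -3.65 to -3.01 in mice 4, 6 and 7, against -3.98 to -2.92 in FVB-WT livers. Its call (18.8-fold, adjusted p = 0.0376) was lost without FVB-WT mice 5 and 7, without FVB-WT mice 1 and 2 and without TRE-MET mouse 1 (adjusted p = 0.0673 to 0.0999). Lcn2, an iron-binding protein of neutrophils that inflamed hepatocytes also make, split the mice in the same way and was not called (log2 change 3.72, SE 1.263, adjusted p = 0.0857). Socs3, a feedback inhibitor of cytokine receptors, was 3.81-fold higher (adjusted p = 0.0274), and was not called without FVB-WT mice 1 and 2 or without TRE-MET mouse 1 (adjusted p = 0.0641 and 0.0602). The granule gene Ltf was 1.32-fold higher with no overlap (adjusted p = 0.0124, and 0.0515 without FVB-WT mice 1 and 2). The part of neutrophils in the acute phase genes was not tested.

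Among 38 MET pathway and immediate early genes, 1 was called higher and 3 lower. Mouse Met was read by 2 probe sets, which were designed for the mouse gene and do not measure the human transgene on its own. At the brighter one the level was 2.22 ± 0.37 in TRE-MET livers and 2.21 ± 0.13 in FVB-WT livers (SD, n = 7 each), which differ by 0.02 (p = 0.898, exact permutation test, two-sided, over 3432 splits). At the other it was 0.08 ± 0.16 in TRE-MET livers and 0.31 ± 0.11 in FVB-WT livers (SD, n = 7 each), a difference of -0.24 (exact permutation p = 0.0111, and 0.0222 adjusted over both probe sets). In limma the second did not pass (adjusted p = 0.0862). Hgf, the ligand of MET, was 1.28-fold higher (adjusted p = 0.0328), at -1.36 to -0.85 in TRE-MET livers and -1.69 to -1.28 in FVB-WT livers, and was not called without TRE-MET mouse 5 (adjusted p = 0.0695). Egr1, an immediate early gene of growth factor signals, lay between -1.32 and 1.21 in TRE-MET livers, with a median of -0.87, and between 0.40 and 2.51 in FVB-WT livers, with a median of 1.26. TRE-MET mouse 3 alone reached the FVB-WT range. Egr1 was 3.78-fold lower in TRE-MET livers (adjusted p = 0.00621), and 5.24-fold higher than in LAP-tTA livers (adjusted p = 2.45e-04), which lay at -3.77 to -1.44. Ier2, of the same class, was 1.51-fold lower with no overlap (adjusted p = 0.0063).

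Of 45 genes of the cell cycle, 1 was called higher and 1 lower. The lower one was Ccnd1, cyclin D1, which drives entry into the cycle. It ranged from -0.28 to 1.77 around a median of 0.80 in TRE-MET livers and from 1.67 to 3.34 around 2.36 in FVB-WT livers, where mice 1 and 2 were the highest. Cyclin D1 was 3.0-fold lower (adjusted p = 0.00569), and without TRE-MET mice 1, 2, 3 and 5 the call was lost (adjusted p = 0.124). LAP-tTA livers, at 0.16 to 0.64, were 3.88-fold below FVB-WT livers (adjusted p = 2.53e-06). Igfbp2, a binding protein of insulin-like growth factors, was 2.21-fold lower with no overlap (adjusted p = 0.00221). Egfr, a growth factor receptor that is higher in male mouse liver, was 2.49-fold higher (adjusted p = 0.0297). FVB-WT mice 1 and 2 lay at 0.76 and 1.47 for Egfr, against 3.03 to 3.56 in FVB-WT mice 3 to 7 and 3.65 to 4.25 in TRE-MET livers. Without these 2 the log2 change was 0.71, down from 1.31 with all mice, and the adjusted p 0.00342, while without TRE-MET mouse 3 the adjusted p was 0.0583. Eif4ebp3, a repressor of translation, was 2.33-fold higher (adjusted p = 8.94e-04), at 1.76 to 2.42 in TRE-MET livers and 0.07 to 1.55 in FVB-WT livers, and 2.90-fold above LAP-tTA livers (adjusted p = 1.07e-08). None of the 11 genes singled out in the study (Met, Myc, Cdkn2c, Cdt1, Mcm3, Dcn, Dhx9, Hnrnpm, Hnrnpu, Lsm2 and Snrpd1) was called in limma, with adjusted p between 0.0758 for Lsm2 and 0.955 for Hnrnpm, and 4 had an unadjusted p under 0.05.

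Lipid genes mostly fell where they changed. In fatty acid oxidation and ketogenesis 6 of 30 genes were called lower and 0 higher, and of 35 genes of fatty acid synthesis and storage, 7 lower and 2 higher. When FVB-WT mice 1 and 2 were left out, 2 oxidation genes and 2 synthesis genes were called lower. Without TRE-MET mice 1, 2, 3 and 5 these counts were 1 and 2, and without TRE-MET mice 4, 6 and 7 they were 15 and 13. Ehhadh, a peroxisomal enzyme of fatty acid oxidation, was 2.16-fold lower (adjusted p = 0.00569), at 2.32 to 3.80 in TRE-MET livers and 3.78 to 4.38 in FVB-WT livers. Acot1, a thioesterase that frees fatty acids from coenzyme A, was 3.25-fold lower (adjusted p = 0.00888), at -2.89 to -0.08 in TRE-MET livers and -0.17 to 0.66 in FVB-WT livers. LAP-tTA livers lay above both groups at 0.94 to 1.52. Neither call held without TRE-MET mice 1, 2, 3 and 5 (adjusted p = 0.0772 and 0.0927). The elongase Elovl5 was 1.51-fold lower with no overlap (adjusted p = 0.0101), and Plin5, a coat protein of lipid droplets, 1.47-fold higher (adjusted p = 0.00552). Of 39 genes of amino acid and urea cycle metabolism, 5 were called lower and 1 higher, with 2 lower without FVB-WT mice 1 and 2 and 13 lower without TRE-MET mice 4, 6 and 7. Hal and Amdhd1, which act in the breakdown of histidine, were both lower without overlap, Hal 1.31-fold (adjusted p = 0.00409) and Amdhd1 1.67-fold (adjusted p = 4.42e-04). Amdhd1 lay at 0.02 to 0.35 in TRE-MET livers and 0.63 to 1.33 in FVB-WT livers, and at 0.17 to 0.35 in LAP-tTA livers. Of 21 clock genes, 1 was called: Nr1d1, a repressor in the clock, was 1.93-fold lower (adjusted p = 0.0104, and 0.279 without TRE-MET mice 1, 2, 3 and 5).

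In the cells that line and support the liver, the changes were small. Of 24 endothelial markers, 3 were called lower, including Cdh5 (1.25-fold, adjusted p = 0.0139) and Kdr (1.28-fold, adjusted p = 0.0149), the genes of vascular cadherin and a receptor of vascular growth factor. Of 18 stellate cell markers, 4 were called lower and 2 higher. Without FVB-WT mice 1 and 2 the count was 1 lower and 1 higher, and without TRE-MET mice 1, 2, 3 and 5 it was 0 in both directions. The growth factor receptor Pdgfrb was 1.32-fold lower (adjusted p = 0.0104), and the collagen gene Col14a1 1.54-fold (adjusted p = 0.00762). The other large changes with no overlap were of single genes. Tedc2, of a tubulin complex of centrioles, was 2.05-fold higher (adjusted p = 1.99e-04), at 0.07 to 0.95 in TRE-MET livers, -0.94 to -0.30 in LAP-tTA livers and -0.77 to -0.24 in FVB-WT livers. Piga, which starts the synthesis of glycolipid anchors, was 2.02-fold higher (adjusted p = 2.25e-04), and Ccdc149 2.89-fold higher (adjusted p = 6.01e-04), and LAP-tTA livers were also above FVB-WT livers at both, 1.91-fold and 3.19-fold. Serpinb1a, an inhibitor of neutrophil proteases, was 3.10-fold lower (adjusted p = 0.0207), at -2.82 to -2.02 in TRE-MET livers and -2.01 to 1.06 in FVB-WT livers, where mice 1 and 2 held 1.06 and 0.68. Without these 2 its log2 change was -0.97 (adjusted p = 0.0146), against -1.63 with them.

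Few genes of several other groups were called with all mice. Of 53 genes of oxidative phosphorylation 2 were called lower, of 56 cytosolic ribosomal proteins 1 was called higher, and of 21 hepatocyte markers 1 was called higher, with a mean level of 4.38 to 4.58 in TRE-MET livers and 4.41 to 4.56 in FVB-WT livers. No gene was called among 20 of cholesterol synthesis, 17 cholangiocyte markers, 13 erythroid markers, 25 acinar and 9 endocrine pancreas markers. Of 40 complement and coagulation genes, 4 were called higher and 0 lower. Some other lists held more calls than the share of all genes in at least 1 direction. Of 18 growth hormone and IGF axis genes, 1 was called higher and 4 lower. Of 17 periportal genes, 1 was higher and 3 lower, and of 27 glycolysis and gluconeogenesis genes, 4 and 1. Of 34 collagen and matrix genes, 2 were higher and 3 lower, and of 24 female-biased genes, 0 and 3. Without FVB-WT mice 1 and 2, 1 gene of each of these lists was called lower. Without TRE-MET mice 4, 6 and 7, 14 of the 53 oxidative phosphorylation genes were called lower, 9 of the 20 cholesterol synthesis genes were called higher and 2 lower, 7 of the 56 ribosomal protein genes were called higher and 1 lower, and 16 complement and coagulation genes were called higher and 1 lower. Without TRE-MET mice 1, 2, 3 and 5, 0 complement and coagulation genes were called higher and 3 lower. The plot of gene lists sets the shares of part of the lists beside those of all genes.

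**Figure D5:**
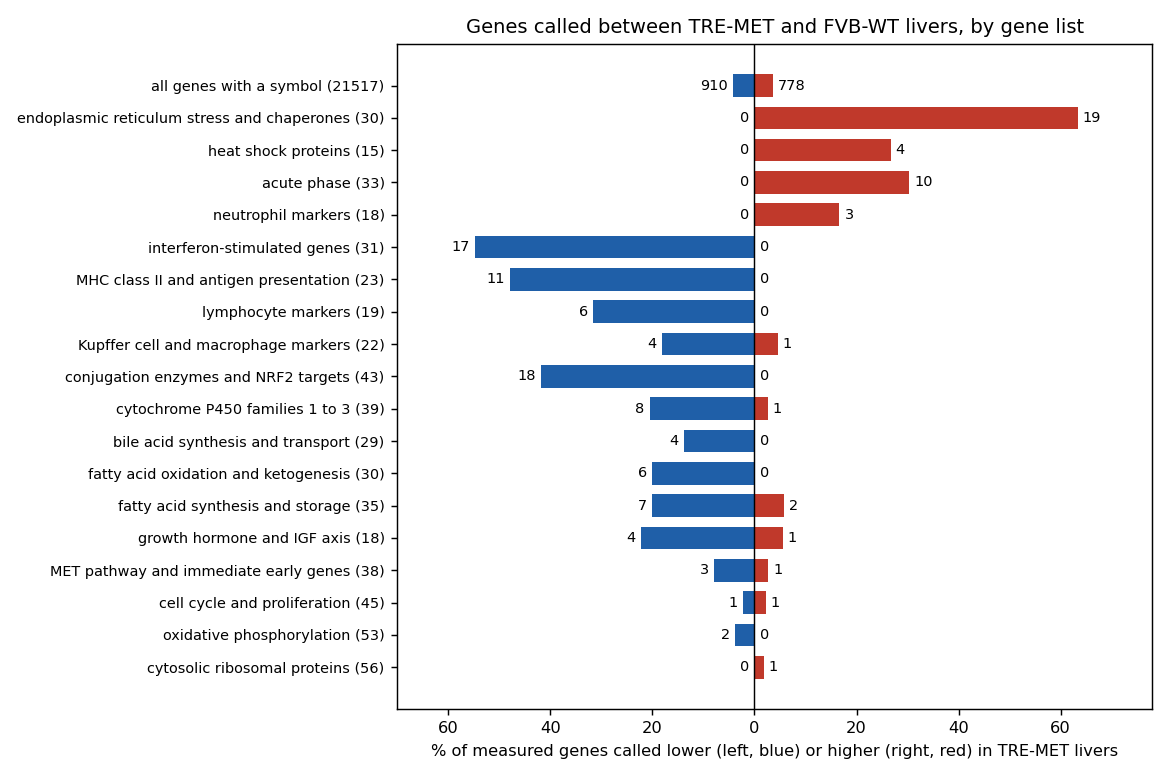
Share of the measured genes of each list (x axis, percent) called higher (red, right) or lower (blue, left) in TRE-MET than in FVB-WT livers by limma, with the number of genes at the end of each bar and the number measured in parentheses. The shares called lower reach 17 of 31 interferon-stimulated genes and those called higher 19 of 30 chaperone genes, against 910 lower and 778 higher of 21517 genes in all.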

How the data were processed

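Liver RNA of 49 mouse samples was hybridised to a custom Affymetrix array, and 14 samples were used here, with 7 LAP-tTA livers for values side by side. According to the methods of the study and the labels, RMA was run by the authors over all arrays at once (version not given in the sources used here). The deposited intensities are linear, 0.01717 to 133.7 in the 14 samples, with a mean of 1.000 in each, and how this mean was set is not given. Log2 was taken with no added constant, no further normalization and no filter. Of the probe sets, 30342 had 1 gene symbol, 13339 none and 0 several, and 6202 symbols were updated through a table of GRCm38.p6, which gave 21517 genes. For 6081 genes with several probe sets, the brightest over the 14 arrays was read. Of 22 other probe sets of the 80 named genes followed under the alternatives, 12 were called in the same direction and 0 were called in the opposite direction. The other 10 were not called, among them probe sets of Egfr (log2 change 0.49, limma adjusted p = 0.191) and Tgtp1 (-0.56, adjusted p = 0.161).

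Groups were compared with limma 3.58.1 (lmFit and eBayes, two-sided, only the groups compared in each fit) in R 4.3.3, with Benjamini-Hochberg adjustment over 43681 probe sets and a threshold of 0.05. Met was tested by exact permutation. The step to calls was tested on simulated data. Python 3.11.15 with numpy 2.4.6, pandas 2.3.3, scipy 1.17.1 and matplotlib 3.10.9 was used for the rest. The members and the 41 gene lists were chosen with earlier results of these data known. Lists are described by counts beside those of all genes and were not tested as sets.

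Genes were named by a rule: the 12 largest increases and decreases among called genes whose groups did not overlap and which were called without FVB-WT mice 5 and 7, the 5 or fewer of each list's genes that had the lowest p, the 11 genes of the study, and sex chromosome and acinar genes as checks. Derl3, Fkbp11 and the other genes of the first part are named under their function. Calr, Canx, Hsp90b1, Pdia6 and Syvn1 are named for a promoter match and Cyp4a12a as a check, outside the rule. Promoters are from RefSeq (GRCm38.p6), which held 27 of the 30 chaperone genes and 23 of the 31 interferon-stimulated genes.

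Mouse numbers mark different animals in each group, and the deviations of mice with the same number from their group means correlated at -0.09 to 0.001, so the numbers do not pair the samples. No 2 arrays correlated above 0.9955, and all 14 were kept as separate mice. The alternatives were samples left out, each mouse left out in turn, quantile normalization, equal array medians, a filter on dim probe sets, all groups in one fit, array weights, the number as a block, other thresholds, the methods' test and 1 probe set per gene. Leaving out FVB-WT mice 1 and 2, alone or with others, was chosen after seeing the data.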

Additional observations from a re-analysis of the deposited data

Results flagged for a closer look

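Among 160 groups of 7 livers, the levels of 80 genes in TRE-MET and in FVB-WT livers, 7 held 1 mouse far from the other 6, its gap to the nearest mouse, as a share of the range of the group, being past the critical value of Dixon's test for 7 values. Chance gives such a mouse in about 1 in 20 groups. In TRE-MET livers this was mouse 5 for Derl3, the highest at 0.64, with the next at -0.64. The other 6 cases were in FVB-WT livers, and 5 of these were in mice 1 and 2, which lacked Y-linked signal. FVB-WT mouse 1 was lowest for Fkbp11 at -1.27 (next -0.36) and highest for Abcc3 at 3.57 (next 2.63) and for Ier2 at 2.72 (next 2.13). FVB-WT mouse 2 was lowest for Il1r1 at -0.61 (next 0.26) and for Nr1d1 at 0.21 (next 0.88). FVB-WT mouse 4 was highest for Gzma at -2.34 (next -2.84). Without FVB-WT mice 1 and 2, Abcc3 was still called lower and Il1r1 higher in TRE-MET livers.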

How the results depend on the processing

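Against the 2654 probe sets called with all 14 mice, 1323 were called without FVB-WT mice 1 and 2, 544 without FVB-WT mice 1, 2, 5 and 7, 1619 without TRE-MET mouse 1, 638 without TRE-MET mice 1, 2, 3 and 5, and 4249 without TRE-MET mice 4, 6 and 7. Without TRE-MET mice 1, 2, 3 and 5, leaving out FVB-WT mice 5 and 7 as well gave 652, and FVB-WT mice 1 and 2 as well gave 1067. With each mouse left out in turn the count lay between 1540 (FVB-WT mouse 1) and 3274 (FVB-WT mouse 7). The mouse number as a replicate block gave 1364, all groups in one fit 4509, an adjusted p under 0.01 590, a fold change of 1.5 or more 492, and the methods' test 4238 at its own threshold and 1767 after Benjamini-Hochberg. Quantile normalization, equal medians, array weights and the filter on dim probe sets gave 2172 to 2958. Leaving out mice moved the count in either direction, and the cause was not tested.

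The chaperone genes called higher (19 with all mice) numbered 11 without TRE-MET mice 1, 2, 3 and 5, 9 without FVB-WT mice 1, 2, 5 and 7, and 10 without FVB-WT mice 1 and 2 and TRE-MET mice 1, 2, 3 and 5. In the same order, the conjugation genes called lower (18) numbered 3, 9 and 9, and were 28 without FVB-WT mice 1 and 2 and TRE-MET mice 4, 6 and 7. The acute phase genes called higher (10) numbered 2, 2 and 1 in that order, 2 without FVB-WT mice 1 and 2, 24 without TRE-MET mice 4, 6 and 7, and 24 when FVB-WT mice 1 and 2 were left out as well. The counts for interferon-stimulated and antigen presentation genes stayed within 1.5 times under these settings. The other probe set of Met gave -0.24. Lcn2 turned to -0.62 without TRE-MET mice 1, 2, 3 and 5, to -0.66 without FVB-WT mice 5 and 7 as well, and to -0.40 without FVB-WT mice 1 and 2 as well. Of the 79 named genes called, 71 were called both without FVB-WT mice 5 and 7 and without FVB-WT mice 1 and 2, 72 with each of the 14 mice left out, and 73 under the replicate block. Without FVB-WT mice 1, 2, 5 and 7 the number was 45, and without TRE-MET mice 1, 2, 3 and 5 it was 43. Only 32 of the 79 kept their call in every alternative fit. In TRE-MET livers Gbp2b and Gbp8 lay near the median of all probe sets on these arrays, -3.28 to -3.21. So did the mean level of the lymphocyte markers, at -3.24 to -3.05. Gzma lay at -2.84 or lower in FVB-WT livers other than mouse 4, and no floor was set for such dim levels.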
